A study of Mus musculus with 60 samples.

Results

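The 10 genes followed here encode replacement histone variants or the chaperones that load them onto DNA, and were read among 27238 genes of the table. They were chosen by name, with earlier results of these data known, and all 10 had a row. The variants were H1foo (now H1f8), the linker histone of the oocyte, H3f3a and H3f3b (now H3-3a and H3-3b), a pair of genes for the replacement form of histone H3, and H2afz (now H2az1), which encodes the H2A variant H2A.Z. The chaperones were Hira, Ubn1 and Cabin1, subunits of the HIRA complex, Asf1a, which hands H3-H4 dimers to other chaperones, and Chaf1a and Chaf1b, the large and middle subunits of the chromatin assembly factor CAF-1.

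A histone variant differs from the histones made in bulk during DNA replication in that it can be loaded outside replication. The HIRA complex deposits the replacement H3 outside replication, CAF-1 deposits canonical H3 behind the replication fork, and ASF1 feeds both. After fertilization the chromatin of the sperm, and after nuclear transfer that of the somatic donor, is rebuilt with histones stored in the egg. H1foo protein is part of that store, and its transcript is maternal.

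The libraries were made from single mouse embryos of the BDF1 background at 6 stages (morula, blastula, and embryos of 1 cell with pronuclei, 2, 4 and 8 cells) and from donor cells, with 3 libraries in each of 20 groups. In vivo embryos came from C57BL/6 females mated with DBA2 males. NTC embryos were made by transfer of a cumulus cell (CC) nucleus, and NTM embryos by transfer of the nucleus of a serum-starved embryonic fibroblast (MEF), into an enucleated egg of a superovulated BDF1 female. Both kinds of NT embryo, but not in vivo embryos, were activated with strontium chloride and cytochalasin B. Only NT embryos were exposed to the histone deacetylase inhibitor Scriptaid and grew in vitro. The egg was BDF1 in NT embryos and C57BL/6 in in vivo embryos. Nuclear transfer, egg genotype, drugs and culture therefore cannot be told apart. Embryos were picked by their morphology, and NTC and NTM embryos were compared with the same in vivo libraries. Each library is a separate embryo or cell sample, and p-values measure the spread between them.

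Between 5294165 and 47830154 reads fell on genes per library. The share of these reads on mitochondrial genes was 5.68 to 8.87% in in vivo 4-cell embryos but 29.6 to 40.4% in NT 4-cell embryos and 32.1 to 45% in in vivo 8-cell embryos, and in vivo blastulas had 7730 to 7808 genes above 0 against 11498 to 13568 in NT blastulas. In in vivo 4-cell embryos the 8 marker genes of oocytes and embryos summed to 8354 to 12468 RPKM, against 55.7 to 397 RPKM in NT 4-cell embryos. The part of these differences in the results below was not tested beyond fits on nuclear genes alone and after median-ratio scaling, which are given where they ended a call. The donor labels were checked against marker genes: 10 of 12 cumulus markers reached a mean of 1 RPKM in CCs, although Has2 was at 0, and 12 of 12 fibroblast markers did so in MEFs. The cumulus list did not set the donors apart by its sum (651 to 1498 RPKM in CCs, 546 to 1244 RPKM in MEFs, where Foxl2 was at 0). The summed level of the fibroblast list was 8940 to 11782 RPKM in MEFs, 6.49 to 18.3 RPKM in CCs and at most 22.3 RPKM in any embryo.

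The genes of the replacement H3 are shown first, because their readouts below lie far apart although their products are the same. Their coding sequences each had 411 bases and 136 codons for residues. They differed at 95 bases (76.9% identical), 81 of them at codon position 3, and at 0 residues. The first 120 bases lie in the first coding exon of each gene, at chr1:180811807-180811926 (minus strand) for H3f3a and chr11:116023890-116024009 (minus strand) for H3f3b (GRCm38, GENCODE M21 transcripts), with the 24 differing bases in capitals.
H3f3a: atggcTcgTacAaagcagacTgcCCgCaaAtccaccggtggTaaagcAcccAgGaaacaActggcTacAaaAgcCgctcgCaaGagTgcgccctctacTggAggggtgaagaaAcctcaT
H3f3b: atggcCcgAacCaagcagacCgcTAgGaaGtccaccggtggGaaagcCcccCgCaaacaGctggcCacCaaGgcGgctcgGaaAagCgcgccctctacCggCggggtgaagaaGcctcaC

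The 150 bases before the RefSeq start (GRCm38.p6) are shown for 3 variant genes that were called between 2 and 4 cells in all embryo types. They lie at chr6:115944781-115944930 (plus strand) for H1foo, chr3:137864337-137864486 (plus strand) for H2afz and chr11:116024505-116024654 (minus strand) for H3f3b. Capitals mark CCAAT on either strand (ATTGG when read from the other strand) and TATAAA.
H1foo: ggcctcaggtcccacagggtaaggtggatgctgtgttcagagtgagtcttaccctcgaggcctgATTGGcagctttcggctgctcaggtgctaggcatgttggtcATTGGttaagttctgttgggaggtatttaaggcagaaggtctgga
H2afz: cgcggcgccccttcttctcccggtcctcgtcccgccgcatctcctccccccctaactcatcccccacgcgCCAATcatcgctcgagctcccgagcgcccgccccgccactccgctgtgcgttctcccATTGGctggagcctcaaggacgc
H3f3b: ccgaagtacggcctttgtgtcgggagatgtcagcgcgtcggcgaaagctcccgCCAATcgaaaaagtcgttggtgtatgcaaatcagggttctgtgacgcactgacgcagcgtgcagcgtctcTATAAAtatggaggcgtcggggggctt
In the 250 bases before the start CCAAT occurred 2 times for H1foo, 2 times for H2afz and 4 times for H3f3b, and 33.8% of 32851 promoters held it at least once. TATAAA occurred 1 time, for H3f3b, against 12.4% of promoters. These 250 bases are 54.0% G or C for H3f3b, 53.2% for H1foo and 71.2% for H2afz. A match of letters is not a binding site, and a link of these bases to the step from 2 to 4 cells was not tested.

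H1foo was high in 1-cell and 2-cell embryos and low later. In 1-cell in vivo embryos it stood at 652, 1481 and 1045 RPKM (reads per kilobase of exon, scaled to the reads of the library), in NTC embryos at 94.5, 130 and 71.8 RPKM and in NTM embryos at 180, 77.6 and 212 RPKM. No NT library reached the lowest in vivo library. On the log2(RPKM + 1) scale the NTC embryos were lower by -3.37 ± 0.36 (SE, adjusted p = 0.0117, limma with Benjamini-Hochberg adjustment over all genes tested) and the NTM embryos by -2.80 ± 0.44 (adjusted p = 0.0221). In these comparisons 1.16% (NTC) and 1.28% (NTM) of all genes tested passed both thresholds, an adjusted p under 0.05 and a difference of at least 1, and H1foo was the single member called in each. The NTC call was lost without in vivo replicate 2 or any of the 3 NTC libraries (adjusted p 0.0565 to 0.124), and the NTM call without in vivo replicate 2 or 3 or any of the 3 NTM libraries (adjusted p 0.0719 to 0.106), while the difference stayed between -3.68 and -2.36 in every such fit. Both calls were also lost when genes under the low-value filter were kept.

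At the 2-cell stage the embryo types lay together, with H1foo at 127 to 162 RPKM in vivo, 88.8 to 165 RPKM in NTC and 99.9 to 162 RPKM in NTM embryos. In vivo embryos thus stood at a mean of 1059 ± 414 RPKM at the 1-cell and 146 ± 17.9 RPKM at the 2-cell stage (SD, n = 3), a difference of -2.78 ± 0.43 on the log2 scale with no overlap that missed the threshold (adjusted p = 0.0952). That step called 0% of genes by limma (615 of 10854 at an unadjusted p under 0.05), and H1foo was called in it with 1 fit over all 20 groups (adjusted p = 0.0112).

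From the 2-cell to the 4-cell stage H1foo fell in every embryo type. It fell to 1.71, 0.559 and 4.85 RPKM in vivo, a mean level 61.5-fold lower (-5.65 ± 0.52 on the log2 scale, adjusted p = 0.000144). In NTC embryos it fell to 8.81, 26.6 and 15.3 RPKM, 7.29-fold lower (-2.87 ± 0.48, adjusted p = 0.00221), and in NTM embryos to 17, 26.5 and 7 RPKM, 7.22-fold lower (-2.92 ± 0.62, adjusted p = 0.00994). These calls held without any 1 library. The lowest NT library was above the highest in vivo library, and the 4-cell difference was +2.49 ± 0.60 for NTC (adjusted p = 0.0151) and +2.44 ± 0.71 for NTM embryos (adjusted p = 0.044). In libraries of whole embryos of several cells, fewer cells of a type and less RNA per cell cannot be told apart. In reads, the in vivo 4-cell libraries held 10 to 95 reads of H1foo and the NT libraries 101 to 378.

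The 4-cell differences of H1foo were less firm than the fall itself. The NTC call was lost without in vivo replicate 1 or 2 (adjusted p 0.0643 to 0.0661), and the NTM call without any in vivo library or without NTM replicate 1 or 2 (adjusted p 0.0629 to 0.159), with a pseudocount of 0.1, and without the low-value filter. On nuclear genes alone the differences were +2.98 and +2.97. The test of the step itself, 2-cell to 4-cell in NTC against in vivo embryos, gave +2.77 ± 0.74 (adjusted p = 0.0243), and that for NTM embryos +2.73 ± 0.83 (adjusted p = 0.0584). The NTM difference between steps was called on nuclear genes alone (+3.20, adjusted p = 0.0403, limma) and with 1 fit over all 20 groups (adjusted p = 0.0385). Later stages held little H1foo: 7 of the 27 libraries were at 0 and the highest, in vivo 8-cell replicate 1, was at 11.3 RPKM.

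**Figure D1:**
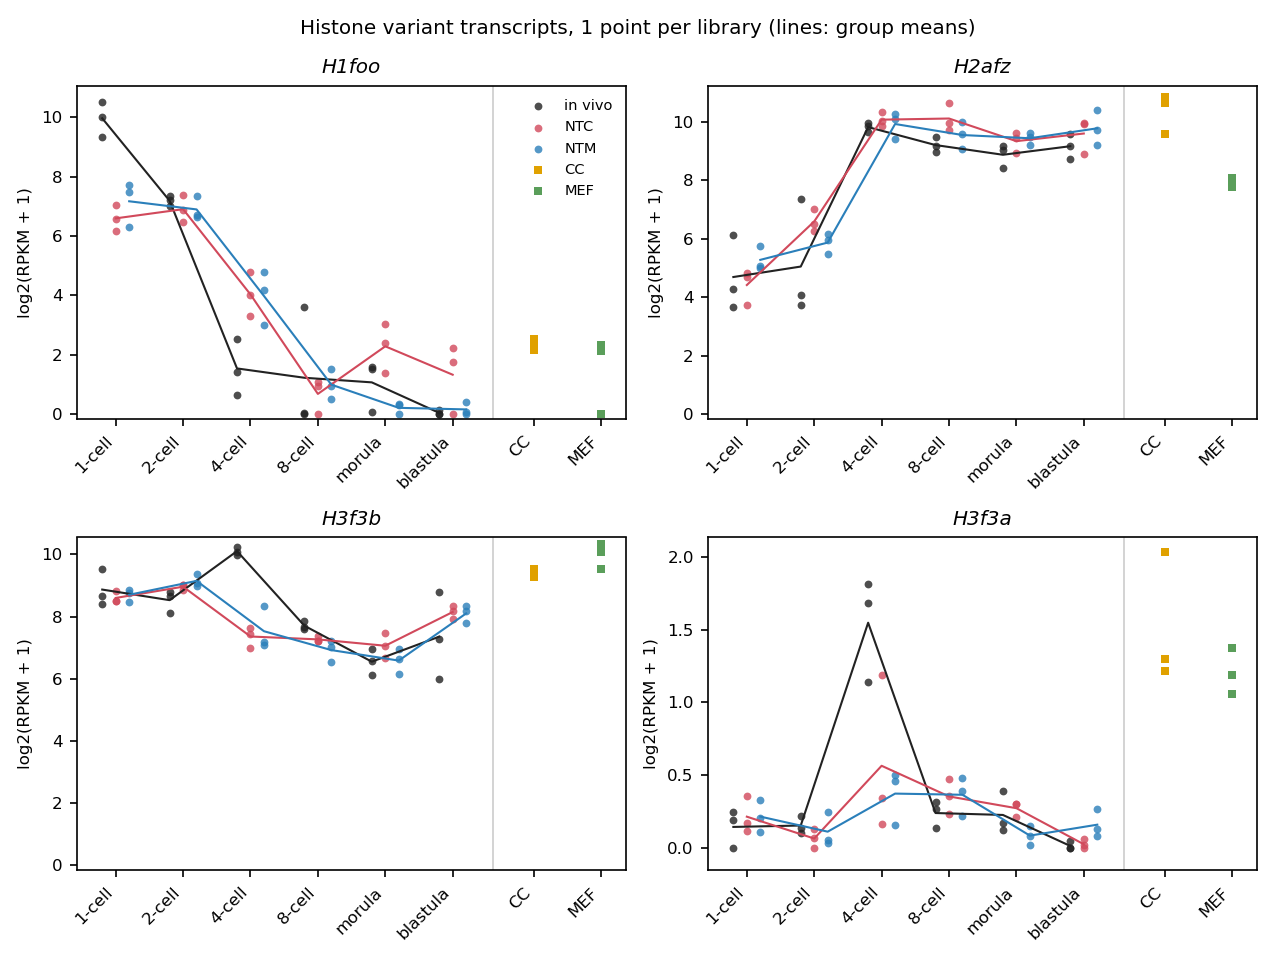
Levels of the 4 histone variant genes as log2(RPKM + 1) by stage, 1 point per library (3 per group), with lines through the group means of in vivo (black), NTC (red) and NTM (blue) embryos and squares for the donor cells CC and MEF. H1foo of the 1-cell in vivo embryos lies at 652 to 1481 RPKM above all NT embryos, H2afz steps up between 2 and 4 cells in all types, and H3f3b of in vivo 4-cell embryos lies above every NT 4-cell embryo. The vertical axis of H3f3a ends near 2.

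Donor cells also held some H1foo, at 3.50 to 4.75 RPKM in the 3 CC libraries and at 4.07, 3.35 and 0 RPKM in the MEF libraries (133 to 213 reads in those above 0). The 8 marker genes of oocytes and embryos moved with it: their sum was 3.72 to 4.63 RPKM in CCs, 3.79 and 3.70 RPKM in MEF replicates 1 and 2, and 0 RPKM, with 0 of 8 genes above 0, in MEF replicate 3. Whether these reads come from the donor cells was not tested. Over the 20 group means of log2(RPKM + 1) the genes most like H1foo were Gdf9 (r = 0.97), Fbxw18 (r = 0.96) and Oosp1 (r = 0.96), and among the members its means ran most against those of H2afz (r = -0.86). These correlations are descriptions over means that share their libraries.

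H2afz, whose product sits at promoters and around the nucleosome-free start of genes, took the opposite course. It was at 11.8 to 163 RPKM in all 18 libraries of the 1-cell and 2-cell stages and at 337 to 1607 RPKM in all 36 later libraries, so these stages did not overlap. From the 2-cell to the 4-cell stage it rose from 12.2, 15.7 and 163 RPKM to 918, 800 and 983 RPKM in vivo (14.2-fold, +4.76 ± 0.90 on the log2 scale, adjusted p = 0.00364). NTC embryos rose from 128, 74.8 and 90 RPKM to 1279, 920 and 1040 RPKM (11.1-fold, +3.48 ± 0.30, adjusted p = 0.000159). NTM embryos rose from 60.8, 43.7 and 70.7 RPKM to 1088, 1219 and 678 RPKM (17-fold, +4.05 ± 0.44, adjusted p = 0.000714). None of these 3 calls depended on 1 library or on another setting.

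NTC embryos had a first rise of H2afz from the 1-cell stage (27.2, 24.6 and 12.4 RPKM) to the 2-cell stage, by +2.17 ± 0.35 (adjusted p = 0.00532), where 13.5% of genes were called. The same step gave +0.36 ± 0.96 in vivo and +0.59 ± 0.37 in NTM embryos, and the difference between the types' steps was not tested. In vivo 2-cell replicate 3 stood apart at 163 RPKM from 12.2 and 15.7 RPKM. Fits that leave it out choose the library by its own H2afz value, so they are a description only. Without it the NTC 2-cell embryos were above in vivo embryos (+2.69, adjusted p = 0.0173, against +1.54 and adjusted p = 0.589 with it), and the 2-cell to 4-cell step was smaller than in vivo in NTC (-2.44, adjusted p = 0.00186, against -1.29 and 0.452) and NTM embryos (-1.87, adjusted p = 0.0435). NT and in vivo embryos did not pass the threshold at any later stage, with differences of +0.11 to +0.91, which turned to -0.28 (NTC) and -0.12 (NTM) in blastulas after median-ratio scaling.

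Between the donors H2afz was the single member called. CCs held 1852, 1573 and 767 RPKM and MEFs 268, 214 and 223 RPKM, 5.95-fold lower (-2.48 ± 0.33, adjusted p = 0.00306), and 6.29% of genes were called there. The call held without any 1 library and was lost when genes under the low-value filter were kept. Chaf1b and Chaf1a, whose products act at replication forks, gave +0.24 and -0.30 between the donors, with CC libraries spread from 0.0054 to 6.67 RPKM for Chaf1b and from 0.0287 to 20.8 RPKM for Chaf1a. The genes most like H2afz over the 20 group means were Bzw1 (r = 0.97), Wdr18 (r = 0.97) and Cct6a (r = 0.97).

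H3f3b carried nearly all reads of the replacement H3 in this table. It was at 63 RPKM or more in all 60 libraries, while H3f3a did not pass 3.08 RPKM in any, and in the 55 libraries with H3f3a above 0 the ratio of H3f3b to H3f3a was 99.3 or more. The level of H3f3a is uncertain as counted: 29.2% of the 50-base windows of its transcripts also occur in transcripts of 42 other genes (18.1% of 150-base windows in 6 genes), against 8.40% for H3f3b in 3 genes, and how reads with several places were counted is not given in the sources used here. H2afz shared 63.8% of its 50-base windows with 6 genes, of which the 3 in the table did not pass 25.3 RPKM.

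In vivo, H3f3b went from 278, 440 and 406 RPKM at the 2-cell stage to 1208, 1012 and 1080 RPKM at the 4-cell stage (2.94-fold higher, +1.57 ± 0.27 on the log2 scale, adjusted p = 0.00226). NT embryos moved the other way. NTC embryos went from 514, 517 and 460 RPKM to 196, 174 and 127 RPKM (3-fold lower, -1.60 ± 0.28, adjusted p = 0.00269), and NTM embryos from 665, 507 and 536 RPKM to 143, 133 and 324 RPKM (2.85-fold lower, -1.62 ± 0.46, adjusted p = 0.032). The NTM call was lost without any 2-cell library or without 4-cell replicate 1 or 2 (adjusted p 0.069 to 0.0896), without the low-value filter and on nuclear genes alone (-1.22).

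The steps of H3f3b differed by -3.17 ± 0.38 between NTC and in vivo embryos (adjusted p = 0.000167) and by -3.19 ± 0.52 between NTM and in vivo embryos (adjusted p = 0.0025). At the 4-cell stage itself NTC embryos were 6.64-fold lower than in vivo embryos (-2.74 ± 0.22, adjusted p = 0.000057) and NTM embryos 5.5-fold lower (-2.57 ± 0.36, adjusted p = 0.00274), with no overlap. These 4 calls held without any 1 library and in every setting tried. On nuclear genes alone the 4-cell differences were -2.27 and -2.05, and after median-ratio scaling -2.28 and -1.79, against a median over all tested genes of -0.39 (NTC) and -0.69 (NTM) before scaling.

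The high level of H3f3b in in vivo 4-cell embryos did not last. At the 8-cell stage in vivo embryos were at 191, 203 and 231 RPKM, 5.29-fold lower than at the 4-cell stage (-2.40 ± 0.16, adjusted p = 0.000049), and NT embryos were at 92.3 to 165 RPKM. The in vivo fall came in a step whose median over all genes was -1.05, and after median-ratio scaling it was -0.97, under the threshold of 1 (adjusted p = 0.0213). Its mean was lowest in in vivo (95.1 RPKM) and NTM morulas (97.3 RPKM), and it was higher in NTM blastulas than in NTM morulas (322, 286 and 221 against 122, 70.5 and 99.1 RPKM, +1.52 ± 0.35, adjusted p = 0.0383), where 4.22% of genes were called. That last call was lost without any morula library or without blastula replicate 1 or 2 (adjusted p 0.0713 to 0.184), without the low-value filter, on nuclear genes alone (+1.07) and after median-ratio scaling (+0.81). H3f3b in NTC embryos gave +1.08 ± 0.30 over the same step (adjusted p = 0.0585).

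H3f3a was low throughout. It had 5 to 8 reads in in vivo 2-cell embryos and 63 to 144 reads in in vivo 4-cell embryos (+1.39 ± 0.37, adjusted p = 0.0158), then 5 to 15 reads at the 8-cell stage (-1.31 ± 0.37, adjusted p = 0.022). NTC 4-cell embryos held 0.269, 0.12 and 1.28 RPKM and NTM 4-cell embryos 0.115, 0.38 and 0.418 RPKM against 2.21, 1.21 and 2.52 RPKM in vivo, differences that missed the threshold (-0.98 ± 0.49 and -1.17 ± 0.45). H3f3a passed the filter on low values, a mean of 0.5 RPKM over the libraries compared, in these comparisons through the in vivo 4-cell libraries, so its being tested there depended on their level. These 2 calls are therefore a description of the in vivo 4-cell libraries and support nothing more. H3f3a was under the filter, and not tested, in 1 fit over all 20 groups, and the fall was lost without any 1 of the 3 8-cell libraries (adjusted p 0.0519 to 0.0594) and after median-ratio scaling.

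**Figure D2:**
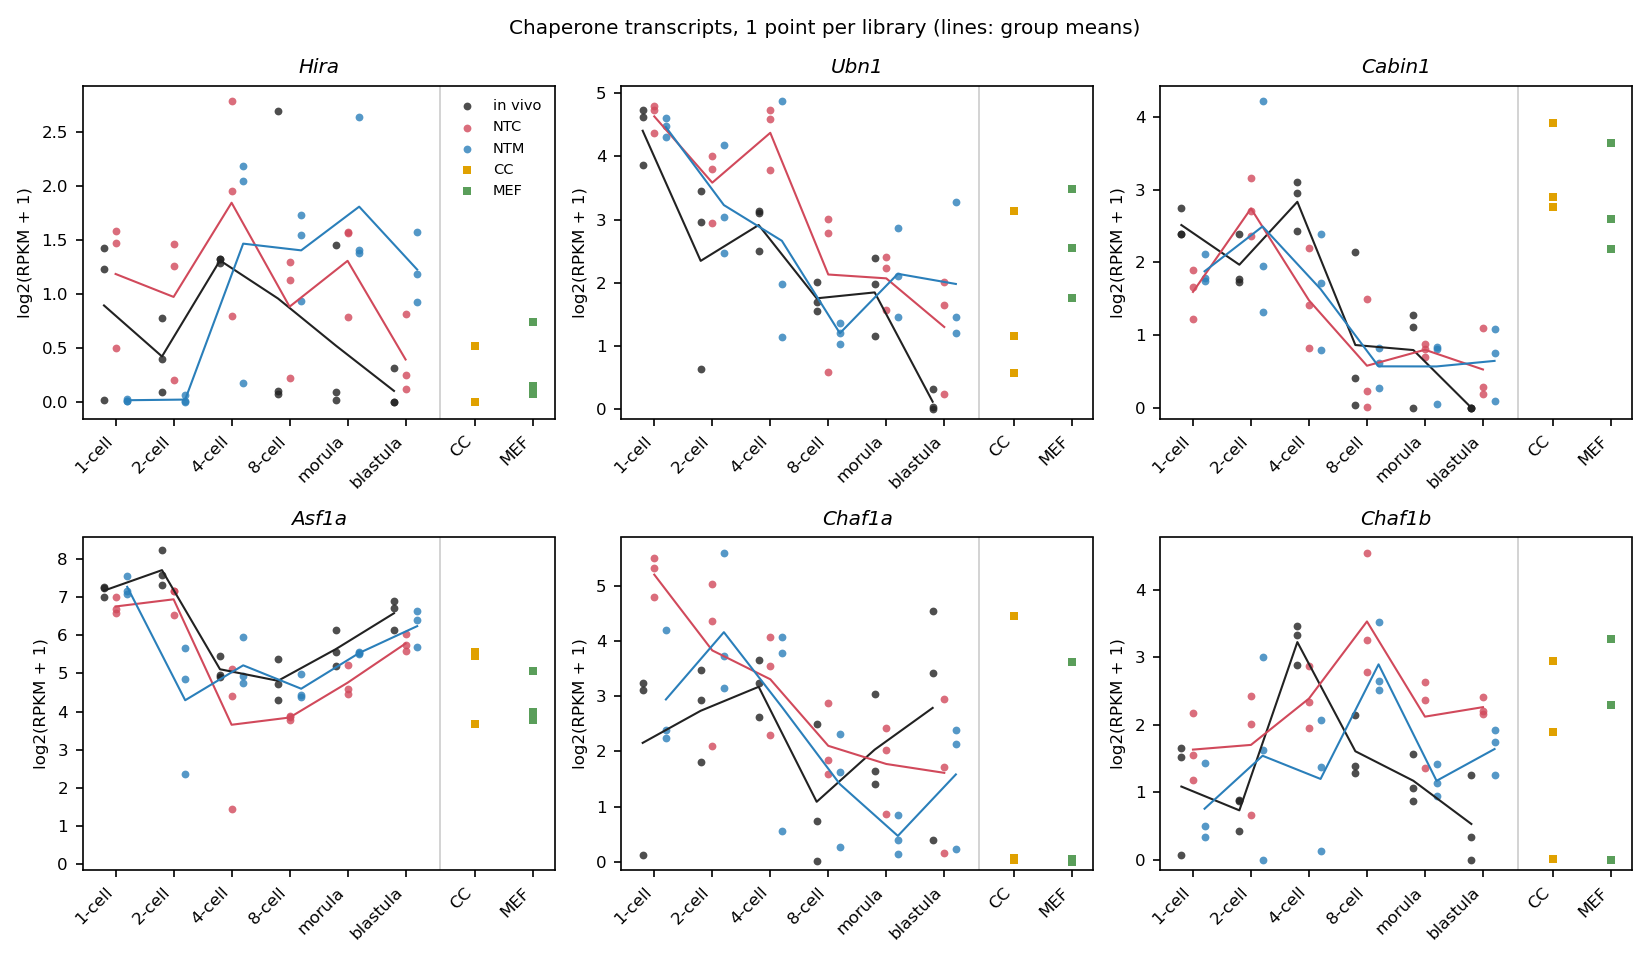
Levels of the 6 chaperone genes as log2(RPKM + 1) by stage, 1 point per library (3 per group), with lines through group means and squares for donor cells; colours as for the variants. Asf1a has the highest median of the 6 genes over all libraries (45.9 RPKM), and single libraries of Chaf1a, Chaf1b and Hira lie far from the others of their group, such as CC replicate 1 at 20.8 RPKM of Chaf1a against 0.0287 and 0.0479 RPKM.

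Asf1a was at 128 to 297 RPKM in in vivo 1-cell and 2-cell embryos, above the other 5 chaperones in each of these 6 libraries. In vivo it fell from 159, 297 and 189 RPKM at the 2-cell stage to 30.2, 28.8 and 43.2 RPKM at the 4-cell stage (6.31-fold lower, -2.59 ± 0.37 on the log2 scale, adjusted p = 0.000948), and this held in every fit. NTC embryos fell over the same step, from 141, 141 and 91.2 RPKM to 1.73, 20.3 and 33.4 RPKM (-3.28 ± 0.85, adjusted p = 0.0165), a call lost without any of the 3 2-cell libraries (adjusted p 0.0552 to 0.0784) and without the low-value filter.

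In NTM embryos the fall of Asf1a was called 1 stage earlier. It went from 143, 135 and 185 RPKM at the 1-cell stage to 28.2, 49.3 and 4.19 RPKM at the 2-cell stage (5.67-fold lower, -2.97 ± 0.74, adjusted p = 0.04) and was at 25.7 to 61.1 RPKM at the 4-cell stage. The call was lost without any 1-cell library or without 2-cell replicate 1 (adjusted p 0.0513 to 0.169), with a pseudocount of 0.1 and without the low-value filter. The 2-cell to 4-cell step of NTM embryos differed from that in vivo by +3.51 ± 1.02 (adjusted p = 0.0483), a call lost without 10 of the 12 libraries in turn (all except NTM 2-cell replicates 2 and 3, adjusted p 0.0562 to 0.11), with a pseudocount of 0.1 and without the low-value filter. At the 2-cell stage no NTM library overlapped the in vivo or NTC libraries, but the direct comparisons missed the threshold (-3.41 ± 0.74, adjusted p = 0.108, and -2.64 ± 0.70, adjusted p = 0.463). Both were called with 1 fit over all 20 groups (adjusted p = 8.26e-05 and 0.00847, limma).

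Asf1a climbed again after the 8-cell stage in group means, from 28.4 to 96.7 RPKM in in vivo, 13.4 to 54.6 RPKM in NTC and 23.7 to 77.4 RPKM in NTM blastulas, with no single step called. In GENCODE M21 the exons of Asf1a share 53.9% of 50-base windows with the overlapping gene Mcm9 on the other strand. The libraries are not stated to keep strand, so reads of the pair cannot be told apart there. The values of Asf1a fit a length of 2180 bases, against 3638 in GENCODE M21, so whether the shared stretch was counted is not known. The row of Mcm9 had a median of 0.844 RPKM and did not pass 8.37 RPKM.

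In the HIRA complex, the 20 group means of log2(RPKM + 1) gave r = 0.18 for Hira and Ubn1, -0.24 for Hira and Cabin1, and 0.54 for Ubn1 and Cabin1. Whether these genes differ in course was not tested. Hira itself, the scaffold subunit, was scarce, with a median of 0.733 RPKM and at most 5.9 RPKM (NTC 4-cell replicate 1, 345 reads), and was called in no comparison. It was almost missing from NTM embryos at the first stages, with 1, 1 and 2 reads in the 1-cell and 1, 4 and 0 reads in the 2-cell libraries, against 26, 195 and 142 reads in NTC 1-cell and 1, 158 and 151 reads in in vivo 1-cell embryos. The NTM against NTC difference at the 1-cell stage was -1.17 ± 0.40 (adjusted p = 0.0628), and it was called without NTC replicate 1 (adjusted p = 0.0322) and with a pseudocount of 0.1 (adjusted p = 0.0357). Hira passed the low-value filter there only through the NTC libraries (mean 1.40 RPKM, against 0.0141 RPKM in NTM embryos). Its being tested depended on their level, so these values are a description only. MEFs held 14, 26 and 197 reads of Hira and CCs 0, 0 and 84. In GENCODE M21, 56.8% of the 50-base windows of Hira also belong to an overlapping gene that has no row in the table.

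Ubn1, a DNA-binding subunit of the same complex, had its highest mean of each embryo type at the 1-cell stage (13.6 to 26.8 RPKM over the 9 libraries). NTC embryos were at 6.73, 15.1 and 12.9 RPKM at the 2-cell stage and at 12.7, 25.8 and 23.3 RPKM at the 4-cell stage. The NTC 4-cell libraries lay above the in vivo libraries at 7.80, 4.68 and 7.58 RPKM (3.08-fold, +1.46 ± 0.41, adjusted p = 0.0277, limma). NTM 4-cell embryos were spread over 1.20, 28.3 and 2.96 RPKM (-0.25 ± 0.93). The NTC call was lost without any in vivo library or NTC replicate 2 or 3 (adjusted p 0.0615 to 0.104) and with 1 fit over all 20 groups. In in vivo blastulas Ubn1 held 0 to 14 reads.

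Cabin1, the third subunit, was at 4.42, 6.77 and 7.63 RPKM in in vivo 4-cell embryos. NTC 4-cell embryos were at 0.772, 3.6 and 1.66 RPKM and NTM embryos at 4.24, 0.741 and 2.28 RPKM. The direct differences missed the threshold (-1.36 ± 0.50, adjusted p = 0.0766, and -1.20 ± 0.59, adjusted p = 0.184). The NTC step from 2 to 4 cells differed from that in vivo by -2.13 ± 0.65 (adjusted p = 0.0434). That call was lost in 9 of 12 fits that left out 1 library (all except those without in vivo 2-cell replicate 1, NTC 2-cell replicate 1 or NTC 4-cell replicate 2, adjusted p 0.0557 to 0.107), with a pseudocount of 0.1, without the low-value filter, with 1 fit over all 20 groups, on nuclear genes alone (-1.89) and after median-ratio scaling (-1.80). Cabin1 was at 0 in all 3 in vivo blastulas, which allows up to 0.0256 to 0.047 RPKM at 3 reads per library, and was at 0.0713 to 1.14 RPKM in NT blastulas. That stage was not tested for Cabin1, whose mean was under the filter.

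Over the 20 group means of log2(RPKM + 1) the CAF-1 subunits Chaf1a and Chaf1b gave r = -0.06, although both were called lower from 4 to 8 cells in vivo. Whether they differ in course was not tested. Chaf1b rose in vivo from 0.859, 0.835 and 0.351 RPKM at the 2-cell stage to 9.99, 9.07 and 6.37 RPKM at the 4-cell stage (12.4-fold, +2.49 ± 0.36, adjusted p = 0.00105), and held in every fit. NTC 4-cell embryos were at 2.89 to 6.30 RPKM and NTM embryos at 1.61, 0.102 and 3.21 RPKM, and the NTM difference missed the threshold (-2.02 ± 0.63, adjusted p = 0.0554; -2.46 and adjusted p = 0.0245 without NTM replicate 3). In group means Chaf1b was highest at the 4-cell stage in vivo and at the 8-cell stage in NT embryos. The 8-cell libraries were at 5.91, 8.55 and 22.3 RPKM in NTC and 5.24, 10.5 and 4.72 RPKM in NTM embryos. They lay above in vivo 8-cell embryos (3.41, 1.63 and 1.45 RPKM) with no overlap but with adjusted p 0.157 and 0.244 (limma). The NTC range overlapped that of NTC 4-cell embryos, and NTM 2-cell replicate 1 was at 7.03 RPKM. A shift in timing was not tested.

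Chaf1a, the large subunit, was highest in NTC 1-cell embryos at 26.6, 38.8 and 44.4 RPKM. NTM 1-cell embryos were at 3.72, 17.4 and 4.23 RPKM (4.33-fold lower, -2.26 ± 0.50, adjusted p = 0.013), the single member called between the NT types, in a comparison that called 19.8% of genes. The call was lost without NTC replicate 2 or 3 (adjusted p 0.0614 to 0.0633), without the low-value filter and with 1 fit over all 20 groups. In vivo 1-cell embryos were at 0.0868, 8.44 and 7.61 RPKM, below NTC embryos by 3.05 ± 0.82 (adjusted p = 0.0973, limma). Without the in vivo library of 3 reads, replicate 1, the difference was +2.03 and was called (adjusted p = 0.0031). That library was picked by its Chaf1a value, so this fit is a description only. It also had 9491 genes above 0 and 13.4% mitochondrial reads, against 12187 and 12593 genes and 4.71 and 6.26% in replicates 2 and 3. Chaf1a shares 45.4% of its 50-base windows in GENCODE M21 with Ubxn6 on the other strand, whose row reached 38.6 RPKM. The values of Chaf1a fit a length of 3308 bases, against 8854 in GENCODE M21, so whether the shared stretch was counted is not known.

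**Figure D3:**
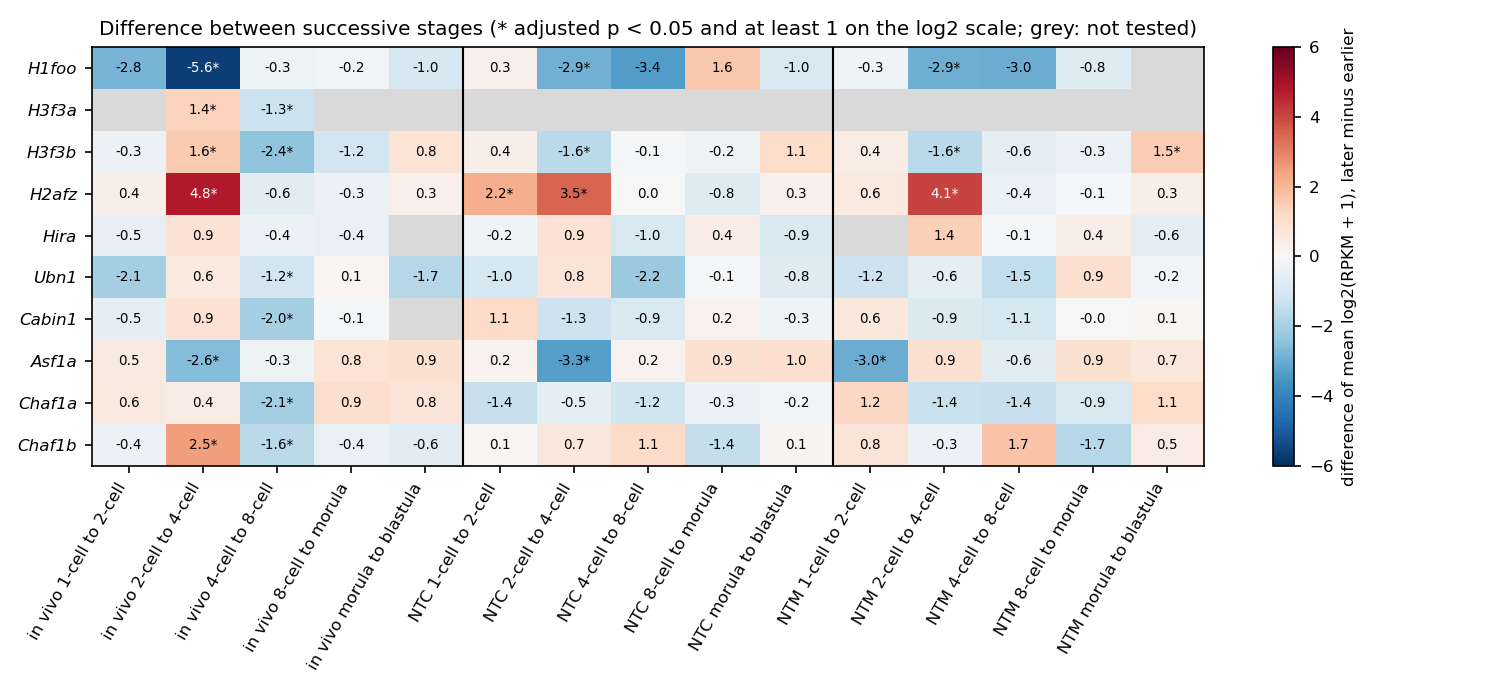
Differences of mean log2(RPKM + 1) between successive stages for the 10 members (rows) in in vivo, NTC and NTM embryos (columns); red is higher and blue lower at the later stage, stars mark calls and grey cells were not tested. The calls gather at the 2-cell to 4-cell step of all types and the 4-cell to 8-cell step of in vivo embryos, where H3f3b goes from +1.6 to -2.4.

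Over the 15 steps between successive stages the members were called 22 times. In vivo, 6 of 10 members were called from 2 to 4 cells, where 52.2% of all genes were called, and 6 of 10 from 4 to 8 cells against 43.7%. Each of these counts includes H3f3a, which was tested there only through its in vivo 4-cell level, and without it they are 5 of 9. In NTC embryos 1 of 9 tested members was called from 1 to 2 cells (13.5% of genes) and 4 of 9 from 2 to 4 cells (36.6% of genes), and in NTM embryos 1 of 8 from 1 to 2 cells (9.4%), 3 of 9 from 2 to 4 cells (26.4%) and 1 of 8 from morula to blastula (4.22%). All 6 in vivo calls from 4 to 8 cells were falls, H3f3a and H3f3b above, Ubn1 (-1.16), Cabin1 (-1.97), Chaf1a (-2.08) and Chaf1b (-1.61), and 0 of 10 members were called there after median-ratio scaling and 2 of 10 on nuclear genes alone. Without 1 library the calls of Ubn1 (any of the 6), Cabin1 and Chaf1a (any 4-cell library, 8-cell replicate 2 or 3) and Chaf1b (4-cell replicate 1 or 2) were lost there, with adjusted p 0.0509 to 0.126. The calls of Ubn1, Cabin1 and Chaf1a were also lost without the low-value filter, those of Ubn1 and Chaf1a with a pseudocount of 0.1, and those of Ubn1, Chaf1a and Chaf1b with 1 fit over all 20 groups.

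The other 8 steps called no member. They were in vivo 1 to 2 cells (0% of genes, 2 members at an unadjusted p under 0.05, 615 genes), 8-cell to morula (0.0116%, 1 member) and morula to blastula (0.801%, 1 member), NTC 4 to 8 cells (0.0564%, 2 members), 8-cell to morula (0%, 3 members, 1270 genes at an unadjusted p under 0.05) and morula to blastula (7.16%, 2 members), and NTM 4 to 8 cells (0.363%, 2 members) and 8-cell to morula (0%, 2 members, 843 genes). H1foo gave -3.35 ± 0.68 in NTC and -2.99 ± 0.72 in NTM embryos from 4 to 8 cells, with adjusted p 0.0934 and 0.148. Both were called with 1 fit over all 20 groups (adjusted p = 0.0017 and 0.00625, limma).

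**Figure D4:**
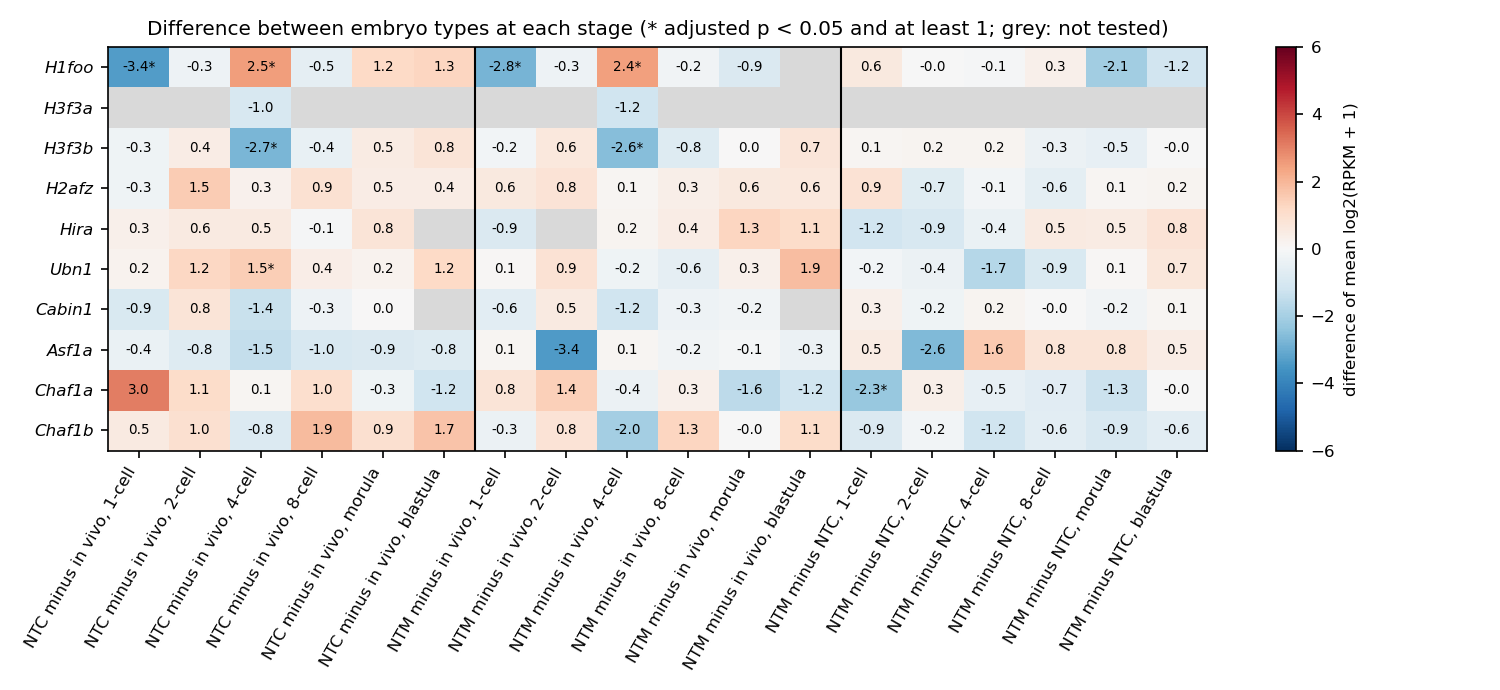
Differences of mean log2(RPKM + 1) between embryo types at each stage for the 10 members (rows): NTC minus in vivo, NTM minus in vivo and NTM minus NTC (columns); stars mark calls and grey cells were not tested. H1foo turns from -3.4 and -2.8 at 1 cell to +2.5 and +2.4 at 4 cells in NTC and NTM embryos, and H3f3b is at -2.7 and -2.6 at 4 cells.

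Over the 12 comparisons of NT with in vivo embryos the members were called 7 times, all at the 1-cell and 4-cell stages. At the 4-cell stage 3 of 10 members were called in NTC embryos, where 27.8% of all genes were called, and 2 of 10 in NTM embryos, against 21.1%. No member was called at the 2-cell stage (0.152% of genes in NTC, 0 members at an unadjusted p under 0.05, and 0.141% in NTM, 1 member), the 8-cell stage (1.46 and 2.02%, 2 members each), in morulas (0.0321%, 0 members, and 0.168%, 1 member) or in blastulas (9.46%, 1 member, and 0.746%, 2 members). In the tests of the steps, 3 of 10 members were called from 2 to 4 cells in NTC (14.3% of genes) and 2 of 10 in NTM embryos (9.91%), and none from morula to blastula (0.236 and 0.647%, 0 members at an unadjusted p under 0.05 in each). After the 1-cell stage NTM and NTC embryos had no member called between them, with 0% of genes called at 2 cells (1 member at an unadjusted p under 0.05, 772 genes), 4 cells (0 members, 602 genes), morula (3 members, 1534 genes) and blastula (0 members, 315 genes) and 0.0507% at 8 cells (0 members).

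Other genes of the same machinery were read from 3 lists: 9 other histone variants in the table, 20 other H3 chaperones and their partners, and 17 chaperones and exchange factors of H2A, H2B and H1. From 2 to 4 cells in vivo 22 of the 41 tested rose and 7 fell, where 4078 of all 12995 genes rose and 2706 fell (52.2% called), with a median of +1.63 against +0.36 over all genes. The largest rises were those of Set (0.354 to 18 RPKM before and 607 to 837 RPKM after, +7.06 ± 0.88), Ruvbl1, an ATPase of H2A.Z exchange complexes (+5.65 ± 0.70), and the variant H2afx (+4.86 ± 0.70). The largest fall was that of Npm2, the egg's nucleoplasmin, from 198 to 1252 RPKM to 15.8 to 20.9 RPKM (-4.79 ± 0.64). Npm2 also fell in NTC (-6.21 ± 0.52) and NTM embryos (-4.69 ± 0.53) over that step, and at the 1-cell stage it was higher in NTC embryos (785 to 952 RPKM) than in vivo (263 to 408 RPKM, +1.34 ± 0.24, adjusted p = 0.0495), where H1foo was lower.

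At the 4-cell stage 14 of 41 tested list genes were lower and 2 higher in NTC than in vivo embryos, where 2341 of all 11457 genes were lower and 848 higher (27.8% called), with a median of -0.71 against -0.39 over all genes, and 10 were lower and 1 higher in NTM embryos (median -0.72 against -0.69), where 21.1% of all genes were called. Nap1l4, a nucleosome assembly protein for H2A-H2B, was at 61.3 to 70.3 RPKM in vivo, 2.43 to 7.69 RPKM in NTC (-3.80 ± 0.42) and 0.314 to 3.40 RPKM in NTM embryos (-5.07 ± 0.58). Supt16, a subunit of the chaperone FACT, was at 22.5 to 28.8 RPKM in vivo and at most 1.11 and 2.05 RPKM in NTC and NTM embryos (-4.33 ± 0.44 and -4.23 ± 0.60). The NTC mean of Supt16 (0.436 RPKM) was under the low-value filter, so its being tested there depended on the in vivo libraries. Nap1l1, a relative of Nap1l4, was higher in NTM embryos (179 to 464 against 71.7 to 87 RPKM, +1.95 ± 0.40). Both genes also moved in these directions within in vivo embryos from 4 to 8 cells. At the 8-cell stage in vivo embryos held 0.122 to 0.151 RPKM of Nap1l4 (-5.90 ± 0.33) and 294 to 555 RPKM of Nap1l1 (+2.42 ± 0.28). The centromere variant Cenpa was lower in NTM embryos (8.40 to 25.8 against 130 to 157 RPKM, -3.16 ± 0.46).

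NT 1-cell embryos of the donor types differed in 11 of 40 list genes, with 4 higher and 7 lower in NTM embryos, where 19.8% of all genes were called. Vps72, a subunit that binds H2A.Z, was at 0.116 to 0.372 RPKM in NTM and 8.39 to 9.92 RPKM in NTC embryos (-3.03 ± 0.32). Its NTM mean was under the low-value filter, so its being tested depended on the NTC libraries. Between the donors 3 of 39 (7.7%) differed, near the 6.29% of all genes: the macroH2A gene H2afy2 was higher in MEFs (35.2 to 53 against 0.0145 to 1.53 RPKM, +4.97 ± 0.65), and Mis18a, of centromere loading (-5.43 ± 0.63), and Anp32e, which removes H2A.Z (10.2 to 15.1 against 41.4 to 81.9 RPKM, -2.22 ± 0.46), were lower. In blastulas 4 of 40 list genes were called in NTC against in vivo embryos, 2 higher and 2 lower (10%, against 9.46% of all genes). In NTM embryos 1 of 40 was called (2.5%, against 0.746%). Set was at 1180 to 2403 RPKM in vivo. It was at 88.6 to 166 RPKM in NTC (-3.83 ± 0.40, adjusted p = 0.0228, limma) and 173 to 203 RPKM in NTM embryos (-3.34 ± 0.35, adjusted p = 0.03). Npm1 was also lower in NTC embryos (-1.14 ± 0.17). H1f0 (+3.44 ± 0.81) and Vps72 (+2.55 ± 0.50) were higher there. Their in vivo means were under the low-value filter, so their being tested depended on the NTC libraries.

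The order of levels over the 20 groups was resolved for few neighbours. Of 19 pairs of groups next to each other in mean level, the library ranges overlapped in 17 for H1foo, 17 for H2afz, 18 for Ubn1, 18 for Cabin1 and 19 for each of the other 6 members. H1foo separated in vivo 1-cell embryos from all others and 1-cell or 2-cell embryos from later stages. H2afz separated in vivo morulas from MEFs and MEFs from NTC 2-cell embryos.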

How the data were processed

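Single-embryo RNA-seq libraries were analysed from the deposited table of RPKM values, which the authors made per gene from reads aligned to the mouse genome; the submitters' processing notes name Bowtie 0.12.2 and mm8, the study's methods name TopHat and HTSeq, and the gene lengths implied by the values fit a GRCm38 annotation for most genes, so which of these made the table, and how reads with several places were counted, is not settled. The libraries had no molecular identifiers. RPKM is not a count, so reads per gene were recovered from the steps between low values with GENCODE M21 exon lengths (74.2 to 80.7% of values under 200 reads in a library came out whole within 0.02 reads; for 6 members the length was itself taken from the steps) and are given only as the depth behind a value: 5294165 to 47830154 reads on genes per library, which cover counting error only. No count test was run, because the share of whole values was too low.

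Groups were taken from the sample labels, and all columns of the table matched a sample. Differences were tested with limma 3.58.1 (R 4.3.3) on log2(RPKM + 1) with an intensity trend, on genes with a mean of at least 0.5 RPKM in the libraries of a fit, so that a difference is on that scale and understates the change of low genes. A gene was called at a Benjamini-Hochberg adjusted p under 0.05 over all genes tested and a difference of at least 1. Steps between stages, NT against in vivo embryos, NTM against NTC embryos and MEFs against CCs were fitted with the 6 libraries compared, and differences between steps with the 12 libraries of both types. The fit was tested on simulated data.

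The 10 members are all named in each comparison. From the lists of related genes at most the 3 largest rises and 3 largest falls called in a comparison are named, and for likeness the 3 genes with the highest Pearson correlation over the 20 group means. The members and lists were chosen with earlier results of these data known. Alternatives were a replicate block, a pseudocount of 0.1, dropping the filter or the fold threshold, median-ratio scaling, nuclear genes alone, 1 model for the 20 groups together, and each library left out in turn. Motifs were searched by their letters on both strands. Shared windows were found in GENCODE M21 transcripts; Python 3.11.15, numpy 2.4.6, pandas 2.3.3 and matplotlib 3.10.9 were used.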

Additional observations from a re-analysis of the deposited data

Results flagged for a closer look

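These 5 results were singled out because the step from 2 to 4 cells differed between NT and in vivo embryos in the test of the difference itself (limma, 12 libraries a fit). In NTC embryos the step differed by 2.775 for H1foo, by -3.175 for H3f3b and by -2.13 for Cabin1 on the log2(RPKM + 1) scale. In NTM embryos it differed by -3.192 for H3f3b and by 3.509 for Asf1a. The same in vivo libraries enter both comparisons. The 2 results for H3f3b held without any 1 library and in every setting tried. Those for H1foo, Cabin1 and Asf1a were lost without 5, 9 and 10 of the 12 libraries in turn. Groups of 3 libraries were too small to test for single outlying samples.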

How the results depend on the processing

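None of the 36 called values changed direction under any alternative. Of them 18 were kept without any 1 library and 15 under all alternatives. The counts of calls moved by over 1.5 times in few settings. Without the filter on low values, 4 in place of 7 calls remained between NT and in vivo embryos, 0 in place of 1 between NTM and NTC embryos, 0 in place of 1 between the donors and 3 in place of 5 in the differences between steps. With a pseudocount of 0.1 there were 2 calls between NTM and NTC embryos and 3 in the differences between steps. Leaving out 1 library gave 18 to 22 calls over the steps (22 with all), 4 to 8 between NT and in vivo embryos (4 without in vivo 4-cell replicate 1 or 2), 0 to 2 between NTM and NTC embryos (0 without NTC 1-cell replicate 2 or 3, 2 without NTC 1-cell replicate 1 or NTM 1-cell replicate 2), 1 to 1 between the donors and 2 to 6 in the differences between steps (2 without in vivo 4-cell replicate 1 or 2, 3 without in vivo 2-cell replicate 2 or NTC 2-cell replicate 3). The causes were not tested.

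The replicate numbers share only a name: in 0 of 34 comparisons was every correlation of same-numbered libraries over 0.1. With a replicate block, 20 calls were made over the steps, 6 between NT and in vivo embryos, 1 between NTM and NTC embryos and 3 in the differences between steps, and 29 of 36 called values were kept. The 7 lost were H3f3a over both in vivo steps (adjusted p 0.0564 and 0.0597), Ubn1 from 4 to 8 cells in vivo (0.0927) and in NTC against in vivo 4-cell embryos (0.0529), H1foo in NTM against in vivo 4-cell embryos (0.0668), and the differences between steps of Cabin1 in NTC (0.0622) and Asf1a in NTM embryos (0.0661). The block added H1foo between 1 and 2 cells in vivo (-2.78, adjusted p = 0.0293, limma) and Asf1a between NTM and in vivo 2-cell embryos (-3.41, adjusted p = 0.0323). Median-ratio scaling kept 28 of 36 called values and nuclear genes alone 29 of 36. Of 331 differences of members, 33 changed sign under the first, none of them called, such as Asf1a (-0.30 to +1.08) and H2afz (-0.61 to +0.82) from 4 to 8 cells in vivo, and 21 of 338 under the second, again none of them called.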
